A study of Mus musculus with 10 samples.

Results

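The genes described here make cholesterol and fatty acids. They are 35 genes picked by name from the 55359 genes of the table, in 3 sets: 18 enzymes of the sterol pathway, 7 genes that control the pathway or handle its lipids, and 10 enzymes that build, lengthen and desaturate fatty acids. All 35 were found by symbol, and all 35 passed the filter on low values. They were read in whole kidney of male mice in 2 groups of 5 libraries. The first group, IRI, had kidney ischaemia of 30 min and then reperfusion of 24 h, and the other had sham surgery. No strain, age, diet or genotype is named for either group, and no interval after sham surgery. Nor do the labels tie each library to a mouse of its own, so the p-values reflect how far these libraries spread.

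Cholesterol is built in the cytosol and the endoplasmic reticulum from acetyl-CoA, by way of HMG-CoA, mevalonate, farnesyl diphosphate, squalene and lanosterol. Fatty acid synthesis draws on the same acetyl-CoA, which ATP citrate lyase releases from citrate. Both branches are switched on by SREBP transcription factors, which Scap carries out of the endoplasmic reticulum when sterols are low and which the Insig proteins hold back when sterols are high. SREBP-2 is known mainly for the sterol genes and SREBP-1 for the fatty acid genes. In the kidney the proximal tubule lives largely on fatty acid oxidation, and lipid droplets are known to collect in it after injury.

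Of the 35 genes, 24 were lower in IRI kidneys, 2 were higher and 9 did not pass the test (edgeR, adjusted p under 0.05 over 13324 genes). The median log2 fold change was -0.87 over the 35 genes and 0.05 over all genes tested. A lower call was made for 32.4% of all genes tested, a higher call for 34.5% and a call of either kind for 66.9%. The 5 largest falls were those of Scd1, Fads2, Cyp51, Idi1 and Hmgcs1, each over 5-fold. A fall of at least 2-fold was called for 14 of the 35 genes and for 15% of all genes tested.

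SREBPs act with the factors NF-Y and Sp1, and promoter sequence is available for part of the set. RefSeq windows of build GRCm38.p6, reaching from 250 bases before a transcript start to 50 bases after it, were found for 28 of the 35 genes. Fdps, Fdft1, Sqle, Stard4, Scd1, Scd2 and Fads1 had none. The windows were searched on both strands for TCACNCCAC, the letters used here for a sterol regulatory element, for the NF-Y box CCAAT and for the Sp1 box GGGCGG. The 200 bases before the start are shown for the 3 sterol genes that fell most (Hmgcs1, Cyp51 and Idi1), for Pmvk, the only sterol gene that rose, and for Fads2, the fatty acid gene with a window that fell most. They run 5' to 3' on the strand of the gene, and capitals mark the letters of a match on either strand (a CCAAT on the other strand reads ATTGG, and a GGGCGG reads CCGCCC).
Hmgcs1: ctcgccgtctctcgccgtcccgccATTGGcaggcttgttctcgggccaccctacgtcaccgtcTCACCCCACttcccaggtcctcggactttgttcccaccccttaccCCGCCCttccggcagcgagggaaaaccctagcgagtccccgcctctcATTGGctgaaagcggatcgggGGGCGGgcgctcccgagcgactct
Cyp51: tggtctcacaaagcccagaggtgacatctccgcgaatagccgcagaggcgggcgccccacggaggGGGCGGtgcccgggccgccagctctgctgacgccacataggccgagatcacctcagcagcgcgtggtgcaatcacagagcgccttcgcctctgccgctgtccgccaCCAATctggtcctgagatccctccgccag
Idi1: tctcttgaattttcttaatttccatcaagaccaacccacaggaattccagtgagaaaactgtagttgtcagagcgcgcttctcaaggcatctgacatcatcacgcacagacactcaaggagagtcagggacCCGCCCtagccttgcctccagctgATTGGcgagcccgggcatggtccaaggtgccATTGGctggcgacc
Pmvk: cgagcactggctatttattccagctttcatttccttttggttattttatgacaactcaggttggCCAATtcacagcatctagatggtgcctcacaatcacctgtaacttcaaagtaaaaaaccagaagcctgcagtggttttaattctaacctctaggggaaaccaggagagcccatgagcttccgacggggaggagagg
Fads2: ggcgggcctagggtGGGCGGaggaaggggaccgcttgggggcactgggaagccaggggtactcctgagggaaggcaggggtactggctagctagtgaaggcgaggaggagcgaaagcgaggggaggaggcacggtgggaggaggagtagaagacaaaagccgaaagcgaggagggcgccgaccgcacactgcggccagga
In build GRCm38.p6 these stretches are chr13:119690151-119690350 on the plus strand for Hmgcs1, chr5:4104698-4104897 on the minus strand for Cyp51 and chr13:8885406-8885605 on the plus strand for Idi1. Those of Pmvk, from the first of its windows, and Fads2 are chr3:89454341-89454540 on the plus strand and chr19:10101504-10101703 on the minus strand.

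The letters TCACNCCAC were found in 1 of the 28 genes, against 1.46% of 9603 tested genes with a window. That gene was Hmgcs1, where TCACCCCAC starts 137 bases before the transcript start. The CCAAT box was found in 22 of the 28 genes, and in 14 of the 15 sterol enzymes with a window, against 42.1% of the tested genes. The Sp1 box was also in 22 of the 28 genes and in 14 of the 15 sterol enzymes, against 68.2% of the tested genes. Of 7 fatty acid enzymes with a window, CCAAT was in 4 and the Sp1 box in 3. By response, CCAAT was in 15 of the 20 genes that fell, 1 of the 2 that rose and 6 of the 6 that were not called. Matches overlapped in Elovl1, a CCAAT and an Sp1 box, and in Fasn, a CCAAT on each strand. A match is only a run of letters, and a window without one says nothing of sites spelled otherwise or farther away.

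The libraries held 13147899 to 17307039 counts in IRI and 13199234 to 18603272 in sham. Levels are given as FPKM, reads scaled to the exonic length of the gene and to the library total. Fold changes are from edgeR with TMM scaling, and they lie below ratios of mean FPKM: with library totals in place of TMM factors the median of all genes moved up by 0.25 on the log2 scale, and the calls became 6311 higher and 3149 lower, against 4599 higher and 4320 lower with TMM factors. IRI replicate 1 stood apart from the other IRI libraries on the second principal component, at 47.59 against -18.56 to 6.13. Kidney markers were present in every library. The 15 proximal tubule markers all fell (median log2 fold change -2.76), to summed levels of 3152 to 10850 FPKM in IRI, against 39490 to 55380 FPKM in sham, most of it Kap. All 11 tubular injury markers rose, with summed levels of 18720 to 29590 FPKM in IRI and 449.2 to 539.4 FPKM in sham. Most of it was Spp1, at 15339.1 to 24928.16 FPKM in IRI and 315.32 to 377.2 FPKM in sham. Havcr1, Krt20 and Sox9 stayed below 1 FPKM in every sham library. They passed the filter only through the IRI libraries, where they are high, and Timp1 did so mainly. Of 12 markers of other nephron segments, 3 rose, 5 fell and 4 were not called. Their sums were 1734 to 3330 FPKM in IRI and 1081 to 2088 FPKM in sham. Umod held much of these sums, at 1329.78 to 2417.43 FPKM in IRI and 493.88 to 1204.84 FPKM in sham. In bulk tissue, fewer cells of a type and less RNA per cell cannot be told apart, and the part that the fall in proximal tubule markers has in the values below was not tested.

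The mevalonate arm turns acetyl-CoA into the isoprenoid farnesyl diphosphate. Of its 7 genes, 5 fell, Pmvk rose and Fdps was not called; their median log2 fold change was -1.47. Hmgcs1 (chromosome 13, 120151915 to 120169796, GRCm39) makes HMG-CoA and was the most abundant of the 35 genes in sham kidneys. It had 49.31, 36.49, 37.59, 25.19 and 31.32 FPKM in the IRI libraries, against 171.21, 161.51, 163.26, 144.07 and 156.22 FPKM in the sham libraries. Every IRI library lay far below every sham library. Its log2 fold change was -2.38 ± 0.19 (SE, adjusted p = 7.48e-07), or 5.21-fold lower.

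Idi1, the isomerase that makes dimethylallyl diphosphate from isopentenyl diphosphate, was a gene of low level that fell by about as much. Its levels were 1.74, 1.54, 1.5, 1.14 and 1.51 FPKM in the IRI libraries and 7.05, 8.40, 8.41, 6.90 and 4.37 FPKM in the sham libraries. The groups did not overlap, although sham replicate 5 was the lowest of its group. The log2 fold change was -2.49 ± 0.20 (adjusted p = 8.12e-07). Mvd, the mevalonate diphosphate decarboxylase, averaged 9.05 ± 4.26 FPKM in IRI and 37.2 ± 4.36 FPKM in sham (SD, n = 5 each), with a log2 fold change of -2.26 ± 0.29. Acat2, the cytosolic thiolase that starts the arm, averaged 15.5 ± 4.28 FPKM in IRI and 36.4 ± 2.96 FPKM in sham, and its log2 fold change was -1.47 ± 0.19. Mvk, the mevalonate kinase, fell least of these genes, by 0.92 ± 0.16 on the log2 scale.

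Pmvk, the kinase of the next step after Mvk, went against its neighbours. It had 12.42, 14.83, 13.59, 17.95 and 14.46 FPKM in the IRI libraries, against 7.90, 5.65, 7.83, 8.71 and 6.97 FPKM in the sham libraries. All IRI libraries were above all sham libraries, with a log2 fold change of 0.73 ± 0.13 (adjusted p = 2.88e-04), or 1.66-fold higher. Fdps, the farnesyl diphosphate synthase at the end of the arm, averaged 4.54 ± 0.43 FPKM in IRI and 3.21 ± 0.45 FPKM in sham. It was not called, at a log2 fold change of 0.25 ± 0.12 (adjusted p = 0.0857), and it was called higher with library totals. Acat3, a near copy of Acat2 that lies beside it on chromosome 17 and is not of the set, had 4.70 to 22.81 FPKM in IRI and 3.18 to 5.66 FPKM in sham. Its log2 fold change was 1.04 ± 0.36 (adjusted p = 0.0232), with adjusted p up to 0.0542 when a library was left out. Reads common to both copies could count for either.

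**Figure D1:**
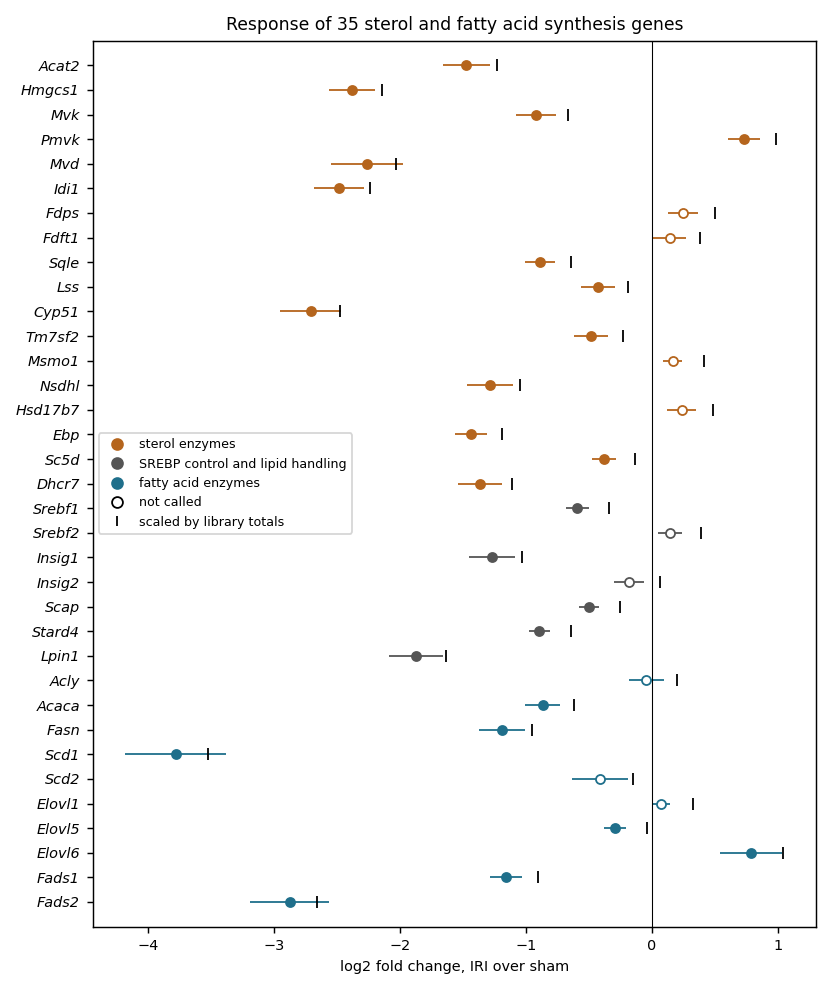
Log2 fold change of IRI over sham (horizontal axis) for each of the 35 genes, listed in pathway order, with bars of 1 SE from edgeR on 5 libraries per group. Filled points passed the test, open points did not, and ticks are the values with library totals. Points of Scd1, Fads2, Cyp51, Idi1, Hmgcs1 and Mvd lie left of -2, and only Pmvk and Elovl6 have filled points right of 0.

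From squalene to lanosterol there are 3 enzymes, of which 2 fell and 1 was not called (median log2 fold change -0.43). Sqle, the squalene epoxidase and a rate-limiting step of the pathway, had 7.30 to 10.13 FPKM in IRI, with a median of 8.20 FPKM, and 11.14 to 14.90 FPKM in sham, with a median of 13.22 FPKM. It fell by 0.89 ± 0.12 on the log2 scale (adjusted p = 3.43e-05), and the groups did not overlap. Lss, which closes the ring to give lanosterol, averaged 2.12 ± 0.35 FPKM in IRI and 2.41 ± 0.17 FPKM in sham. These levels overlapped, and its fall of 0.43 ± 0.13 (adjusted p = 0.0137) was not called with library totals. Fdft1, the squalene synthase, was not called (log2 fold change 0.14 ± 0.13, adjusted p = 0.37). Its gene shares 774 bases with Ctsb on the other strand, which averaged 148.8 FPKM in IRI and 93.64 FPKM in sham, and the sources used here do not say whether strand was used in counting.

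The steps from lanosterol to cholesterol had 8 enzymes in the set. Of these, 6 fell, none rose and 2 were not called (median log2 fold change -0.89). Cyp51 (chromosome 5, 4131145 to 4154746, GRCm39), the demethylase that takes the first methyl group off lanosterol, fell most of all sterol genes. It had 15.58, 13.92, 9.07, 7.45 and 8.79 FPKM in the IRI libraries and 59.51, 42.32, 60.83, 71.21 and 70.67 FPKM in the sham libraries. The groups were far apart, with sham replicate 2 the lowest of the sham libraries. The log2 fold change was -2.71 ± 0.24 (adjusted p = 1.81e-06), or 6.53-fold lower.

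Ebp, the sterol isomerase, averaged 15.8 ± 2.11 FPKM in IRI and 36.1 ± 4.15 FPKM in sham, a log2 fold change of -1.44 ± 0.13. Dhcr7, the reductase that makes cholesterol from 7-dehydrocholesterol, averaged 1.89 ± 0.51 FPKM in IRI and 4.09 ± 0.34 FPKM in sham, a log2 fold change of -1.36 ± 0.17. Nsdhl, a member of the complex that removes the methyl groups at carbon 4, fell by 1.29 ± 0.18. None of these 3 genes had overlapping groups. The partners of Nsdhl in that complex did otherwise: Msmo1, the oxidase, had a log2 fold change of 0.16 ± 0.08 (adjusted p = 0.0737) and Hsd17b7, the ketoreductase, one of 0.23 ± 0.11 (adjusted p = 0.0892). Neither was called, and both were called higher with library totals, with FPKM in every IRI library above every sham library. Tm7sf2, a delta14 reductase, and Sc5d, the C5 desaturase, fell by 0.48 ± 0.14 and 0.38 ± 0.10. Both had overlapping groups and were not called with library totals, and Tm7sf2 shares 532 bases with Vps51 on the same strand.

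Within the sterol pathway as a whole, 13 of the 18 enzymes fell, 8 of them at least 2-fold, and 1 rose (median log2 fold change -0.91). The falls were not spread evenly along it. In order of the reactions, log2 fold changes of -1.47 and -2.38 for Acat2 and Hmgcs1 were followed by -0.92 for Mvk, 0.73 for Pmvk, -2.26 for Mvd, -2.49 for Idi1 and 0.25 for Fdps. Summed over the 18 genes, the level was 145.8 to 208.8 FPKM in IRI libraries and 411.1 to 450.6 FPKM in sham libraries. Hmgcs1 was the most abundant of the 18 in both groups. Cyp51 was next in sham, at 60.9 FPKM, but in IRI, at 11.0 FPKM, it stood below Ebp, Acat2 and Pmvk.

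**Figure D2:**
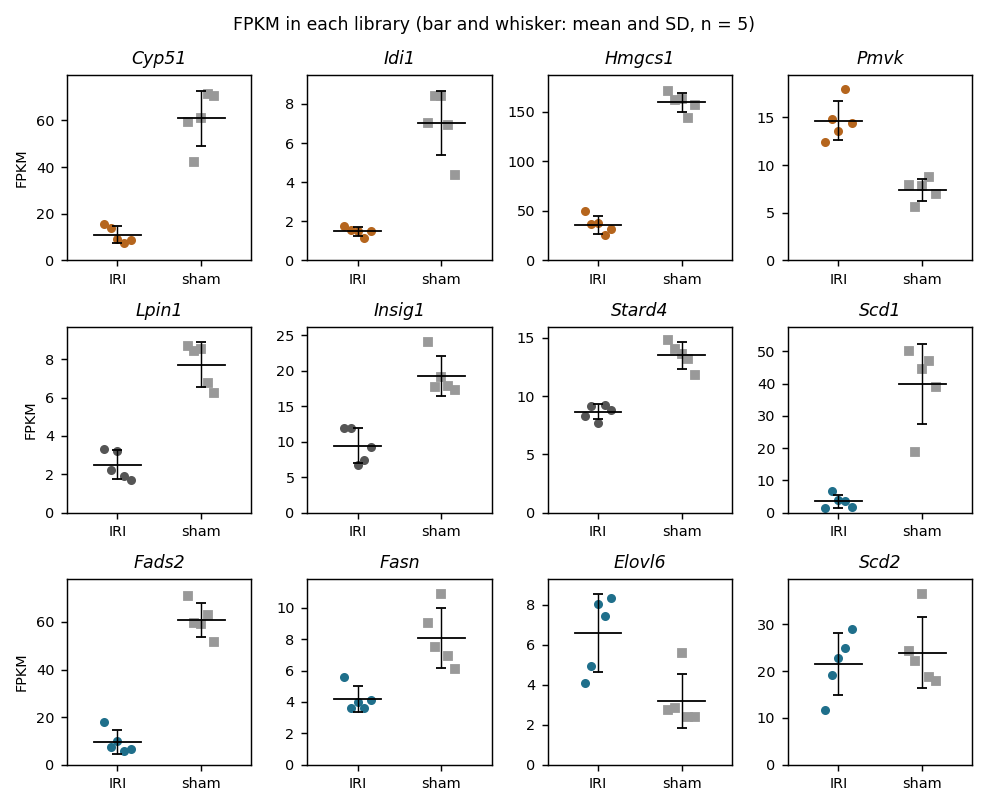
FPKM (vertical axis, from 0) of 12 of the genes in each IRI library (coloured circles, left) and each sham library (grey squares, right), with the mean and SD of 5 libraries. IRI and sham points are separate for all genes shown but Elovl6 and Scd2, and only Pmvk and Elovl6 have the higher mean in IRI.

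The 7 control genes hold no gene that rose: 5 fell and 2 were not called (median log2 fold change -0.59). The SREBP genes themselves had small fold changes. Srebf1 had 7.23, 7.15, 5.90, 6.67 and 6.58 FPKM in the IRI libraries, against 9.37, 8.09, 8.75, 8.27 and 8.12 FPKM in the sham libraries. The groups did not overlap, and it fell by 0.59 ± 0.09 on the log2 scale (adjusted p = 1.14e-04). Srebf2 had 17.77, 20.74, 16.50, 16.14 and 17.32 FPKM in the IRI libraries and 14.84, 13.33, 14.16, 13.21 and 11.90 FPKM in the sham libraries. Its FPKM was higher in every IRI library, but its log2 fold change of 0.14 ± 0.10 did not pass the test (adjusted p = 0.215), and it was called higher only under scalings by library totals. Messenger RNA does not show how much SREBP is cut and moves to the nucleus.

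Insig1, the retention protein whose gene is itself a target of SREBP, had 11.88, 11.90, 6.73, 7.36 and 9.26 FPKM in the IRI libraries, against 24.09, 17.76, 19.09, 17.91 and 17.24 FPKM in the sham libraries. The groups were apart, and it fell by 1.27 ± 0.18 on the log2 scale (adjusted p = 6.67e-05). Insig2, the related protein known in mouse liver for a transcript with its own regulation, had 14.34, 9.96, 12.69, 15.03 and 13.41 FPKM in the IRI libraries and 13.64, 11.84, 14.26, 11.30 and 11.57 FPKM in the sham libraries. These overlapped throughout (log2 fold change -0.18 ± 0.12, adjusted p = 0.198). Scap, the escort protein, fell by 0.50 ± 0.08, to 8.45 ± 0.23 FPKM in IRI, against 10.1 ± 1.08 FPKM in sham.

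The other control genes handle lipids made by the pathway. Stard4, a cytosolic carrier of sterols, had 8.30, 9.18, 7.69, 9.21 and 8.83 FPKM in the IRI libraries and 14.83, 14.05, 13.58, 13.16 and 11.80 FPKM in the sham libraries. All IRI libraries were lower, with a log2 fold change of -0.89 ± 0.09 (adjusted p = 2.91e-06). Lpin1, a phosphatidate phosphatase of triglyceride synthesis that is also an SREBP target, had 3.34, 2.22, 3.24, 1.92 and 1.71 FPKM in the IRI libraries, against 8.72, 8.42, 8.54, 6.75 and 6.22 FPKM in the sham libraries. It fell most of the control genes, by 1.87 ± 0.21 on the log2 scale (adjusted p = 1.09e-05), with the groups again apart.

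Of the 10 fatty acid enzymes, 6 fell, Elovl6 rose and 3 were not called (median log2 fold change -0.64). Their summed level was 139.5 to 162.8 FPKM in IRI and 211.9 to 264.4 FPKM in sham. Acyl chain synthesis has 3 genes. Acly, which supplies acetyl-CoA to both branches, had 38.86, 28.22, 32.69, 30.63 and 35.68 FPKM in IRI and 29.96, 30.98, 34.52, 27.07 and 22.08 FPKM in sham, and it was not called (log2 fold change -0.04 ± 0.14, adjusted p = 0.79). Acaca, the carboxylase that makes malonyl-CoA, was the least abundant of the 35 genes, at 0.87 ± 0.10 FPKM in IRI and 1.33 ± 0.24 FPKM in sham. It fell by 0.87 ± 0.14. It met the filter of 1 FPKM in 5 libraries by 4 sham libraries and IRI replicate 3, so its pass leaned on the group in which it is high. Fasn, which builds palmitate from malonyl-CoA, had 5.6, 3.59, 3.99, 3.61 and 4.10 FPKM in IRI and 9.03, 7.51, 10.89, 6.93 and 6.08 FPKM in sham. The groups did not overlap, though IRI replicate 1 came near the lowest sham library, and the log2 fold change was -1.19 ± 0.18 (adjusted p = 1.14e-04).

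Desaturation at the delta9 bond turns stearate into oleate. Scd1 (chromosome 19, 44382894 to 44396318, GRCm39) fell most of all 35 genes. It had 1.47, 6.67, 3.90, 3.54 and 1.83 FPKM in the IRI libraries, against 50.17, 18.91, 44.48, 47.02 and 38.92 FPKM in the sham libraries. Sham replicate 2 was far below the other sham libraries and still above every IRI library. The log2 fold change was -3.78 ± 0.40 (adjusted p = 5.95e-06), or 13.8-fold lower. Scd2, a related desaturase whose gene lies near Scd1 on chromosome 19, had 11.68, 19.22, 22.80, 24.94 and 29.07 FPKM in the IRI libraries and 24.36, 22.19, 36.59, 18.73 and 17.91 FPKM in the sham libraries. Scd2 overlapped widely and was not called (log2 fold change -0.42 ± 0.22, adjusted p = 0.117). The order of their mean levels was not the same in the groups: Scd1 averaged 3.48 FPKM and Scd2 21.5 FPKM in IRI, and Scd1 averaged 39.9 FPKM and Scd2 24.0 FPKM in sham. Reads of stretches alike in both genes could be split either way.

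Polyunsaturated fatty acids are desaturated by Fads2 and then by Fads1, whose genes lie near each other on chromosome 19 on opposite strands. Fads2, the delta6 desaturase, had 18.17, 7.64, 10.01, 5.70 and 6.67 FPKM in the IRI libraries, against 71.02, 59.58, 58.99, 62.93 and 51.49 FPKM in the sham libraries. IRI replicate 1 was the highest of its group and the groups were far apart, with a log2 fold change of -2.88 ± 0.31 (adjusted p = 7.36e-06), or 7.35-fold lower. Fads1, the delta5 desaturase, had 10.73, 8.50, 13.95, 10.90 and 9.83 FPKM in IRI and 21.08, 19.14, 18.47, 22.25 and 20.21 FPKM in sham. It fell less, by 1.16 ± 0.13 on the log2 scale (adjusted p = 8.61e-06), also with no overlap.

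The elongases add carbon pairs to a fatty acid. Elovl6, which lengthens palmitate to stearate, was the only fatty acid gene of the set that rose. It had 4.11, 4.93, 8.05, 7.46 and 8.36 FPKM in the IRI libraries, against 2.73, 2.84, 5.59, 2.39 and 2.40 FPKM in the sham libraries. Sham replicate 3 lay above IRI replicates 1 and 2, so the groups overlapped (log2 fold change 0.79 ± 0.25, adjusted p = 0.0144). Sham replicate 3 was also the highest sham library for Acly, Acaca, Fasn, Scd2 and Elovl5, but not for Scd1, Elovl1, Fads1 or Fads2. It was the highest for the adipocyte gene Cfd, at 7.14 FPKM there and 0 to 2.34 FPKM in the other sham libraries. The adipocyte gene Adipoq was highest there too, at 0.84 FPKM against 0 to 0.24 FPKM in the others. Plin1, Cidec, Lep, Cidea and Ucp1 were also highest there among sham libraries, but Retn and Adig were highest in sham replicate 1. Car3 was lowest in sham replicate 3, at 25.65 FPKM against 27.85 to 43.64 FPKM in the other sham libraries. Sums over all 10 adipocyte markers were 35.33, 44.06, 27.93 and 32.0 FPKM in the other sham libraries. In sham replicate 3 the sum was 37.01 FPKM, most of it Car3. Over the 9 without Car3, a sum added after values were seen, it was 11.36 FPKM in that library and 4.46, 0.42, 0.08 and 0.72 FPKM in the other sham libraries. The part of adipocytes in these levels was not tested, and without that library the log2 fold change of Elovl6 was 1.09 and that of Scd2 -0.21. Elovl5, which lengthens polyunsaturated fatty acids, had 15.38, 17.99, 19.95, 18.67 and 17.31 FPKM in IRI and 20.33, 17.29, 20.60, 16.48 and 17.11 FPKM in sham. Its fall of 0.29 ± 0.09 (adjusted p = 0.00982) came with overlapping groups and was not called with library totals. Elovl1, which makes very long saturated chains, had 37.18, 41.96, 46.42, 41.00 and 41.14 FPKM in IRI and 34.32, 32.91, 31.20, 33.02 and 34.42 FPKM in sham. It was not called (log2 fold change 0.07 ± 0.08, adjusted p = 0.416) and was called higher with library totals.

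Related genes were compared in 6 pairs by the ratio of their counts within each library, which does not depend on how libraries are scaled to each other. The 252 ways of splitting the libraries into groups of 5 gave an exact permutation p for each difference (2-sided, at least 0.00794), adjusted over the 6 pairs. The pairs were chosen with earlier results of these data known, and the adjustment does not take that choice into account. Scd1 over Scd2 moved most. Its log2 ratio was -3.14, -1.69, -2.71, -2.98 and -4.14 in the IRI libraries and 0.88, -0.39, 0.12, 1.17 and 0.96 in the sham libraries, a difference of -3.48 (exact permutation test, adjusted p = 0.0119). Fads1 over Fads2 was -0.21, 0.70, 1.02, 1.48 and 1.10 in the IRI libraries and -1.21, -1.09, -1.13, -0.95 and -0.80 in the sham libraries, a difference of 1.86 (exact permutation test, adjusted p = 0.0119). More counts fell on Fads2 than on Fads1 in every sham library, and in IRI only in replicate 1.

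Insig1 over Insig2 averaged -0.67 ± 0.52 in IRI and 0.45 ± 0.15 in sham on the log2 scale, a difference of -1.11. Srebf1 over Srebf2 averaged -1.75 ± 0.11 in IRI and -1.01 ± 0.06 in sham, a difference of -0.74 (exact permutation test, adjusted p = 0.0119 for both pairs). None of these 4 pairs had overlapping groups. Against Elovl6, Elovl5 differed by -1.11 (exact permutation test, adjusted p = 0.019) and Elovl1 by -0.75 (adjusted p = 0.0476). The Elovl1 difference missed the threshold with a pseudocount of 5 counts in place of 0.5 (adjusted p = 0.0556) and without any 1 of 7 of the 10 libraries (IRI replicates 3, 4 and 5 and sham replicates 1, 2, 4 and 5, adjusted p = 0.0952 to 0.103), with differences of -0.73 to -0.65.

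**Figure D3:**
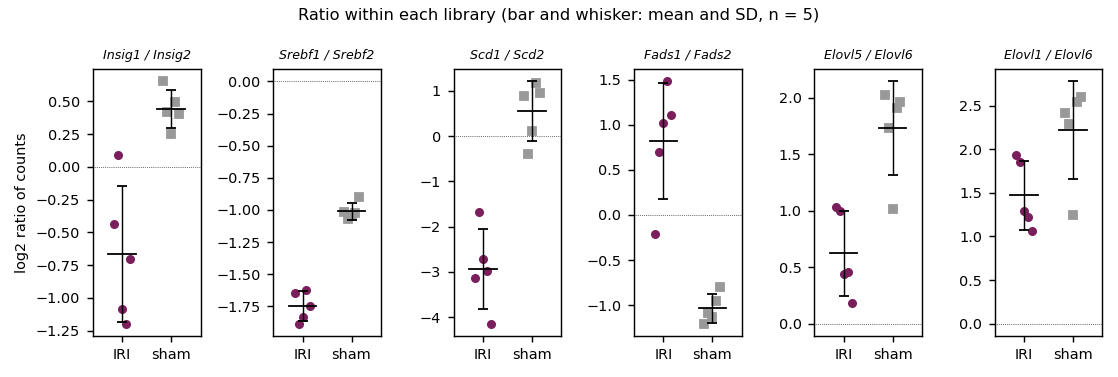
Log2 ratio of counts (vertical axis, a separate scale per panel) of 6 gene pairs in each IRI library (purple circles, left) and sham library (grey squares, right), with the mean and SD of 5 libraries. The Scd1/Scd2 ratio is -4.14 to -1.69 in IRI and -0.39 to 1.17 in sham, and the Elovl pairs overlap through sham replicate 3.

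Set side by side, the median log2 fold changes were -0.91 for the sterol and -0.64 for the fatty acid enzymes, a difference of -0.26. With means in place of medians, where Scd1 and Fads2 count with their full falls, the difference was 0.03. Lower calls were made for 13 of 18 sterol and 6 of 10 fatty acid enzymes, and 1 of each branch was called higher. FPKM ranges of the groups did not overlap for 26 of the 35 genes, with IRI lower for 19 and higher for 7, and these shares over all genes tested were 18.6% and 36.7%. All 24 lower and both higher calls also passed without each library in turn. Calls of higher level were gained by Fdps without IRI replicate 4 (adjusted p = 0.0499) or sham replicate 1 (adjusted p = 0.0213), by Msmo1 without sham replicate 1 (adjusted p = 0.0293) and by Hsd17b7 without sham replicate 3 (adjusted p = 0.0351). Scaling by library totals left 20 lower calls and gave 8 higher ones: Lss, Tm7sf2, Sc5d and Elovl5 were no longer called lower, and Fdps, Fdft1, Msmo1, Hsd17b7, Srebf2 and Elovl1 were called higher.

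The IRI libraries were not alike in how far the genes fell. IRI replicate 1 had the highest scaled level of its group for 15 of the 24 genes called lower and for 9 of the 13 sterol enzymes among them. IRI replicate 4 had the lowest for 9 of the 24 and 7 of the 13. The summed sterol enzymes were at 208.8, 172.8, 184.8, 145.8 and 156.7 FPKM in IRI replicates 1 to 5. The summed proximal tubule markers were at 8509, 10850, 10060, 3332 and 3152 FPKM in the same order, most of it Kap, a transcript abundant in the proximal tubule. Over the 14 markers without Kap, a sum added after values were seen, they were at 1738.81, 808.68, 784.43, 317.2 and 415.61 FPKM. By the second sum, unlike the first, IRI replicate 1 was the highest. Slc34a1, at 583.56 FPKM, and Cyp4b1, at 422.05 FPKM, held much of that sum in IRI replicate 1. Of the 14 markers, Slc7a13 and Slc22a7 were highest in IRI replicate 2, Slc4a4 in IRI replicate 3 and the others in IRI replicate 1. The part of the tubule in the sterol levels was not tested. Without IRI replicate 1, Hmgcs1 had a log2 fold change of -2.57 and Mvd of -2.61.

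**Figure D4:**
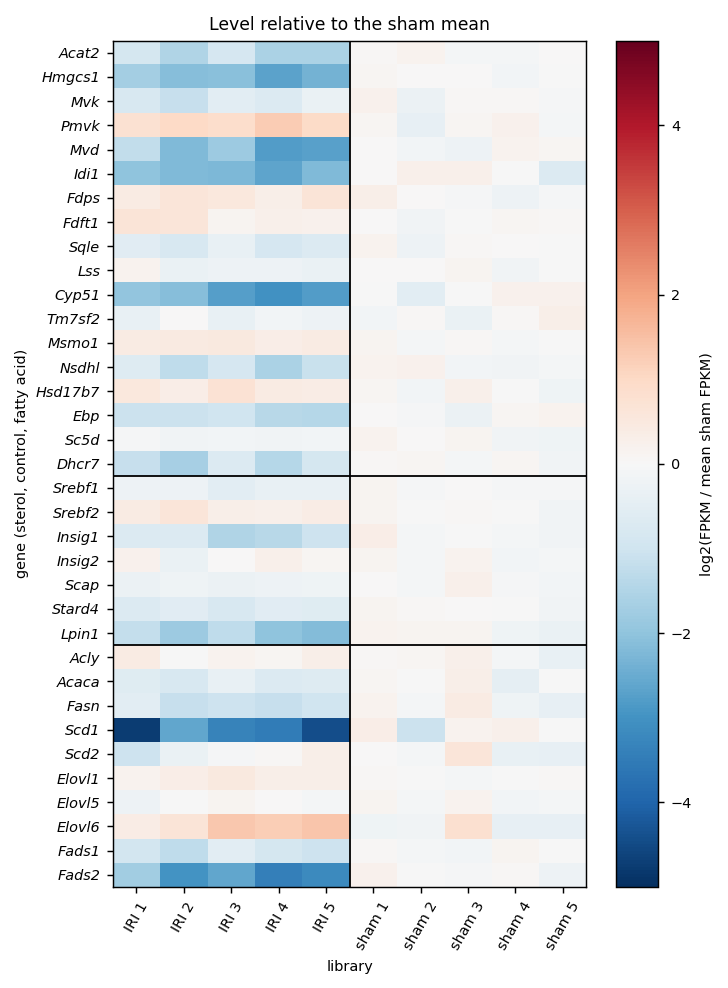
Log2 of FPKM over the mean sham FPKM (colour, blue below and red above the sham mean) for the 35 genes (rows, in pathway order) in the 5 IRI libraries (left) and the 5 sham libraries (right). Scd1, Fads2, Cyp51, Idi1 and Hmgcs1 are blue in every IRI library, while Pmvk, Fdps, Msmo1, Hsd17b7 and Srebf2 are red in every one.

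Cell types that also make lipids were looked for by their markers. Of 10 adipocyte markers only Car3 was tested, and it fell (log2 fold change -3.01), with summed levels of 3.45 to 18.73 FPKM in IRI and 27.93 to 44.06 FPKM in sham. Over the other 9 markers the sums overlapped, at 1.57 to 7.30 FPKM in IRI and 0.08 to 11.36 FPKM in sham. Not all went the same way, with mean Adipoq at 0.03 FPKM in IRI and 0.26 FPKM in sham, mean Cfd at 0.01 FPKM in IRI and 1.98 FPKM in sham, mean Cidec at 2.35 FPKM in IRI and 0.14 FPKM in sham, and mean Adig at 0.94 FPKM in IRI and 0.13 FPKM in sham. With no filter, 2 of the 10 were called higher and 3 lower. Of 9 adrenal cortex markers 2 were tested and both rose, Akr1b7 by 2.03 and Star by 0.78 on the log2 scale, and the sums were 9.27 to 20.03 FPKM in IRI and 2.44 to 4.51 FPKM in sham. Of the steroid-making enzymes in the list, Cyp11a1, Cyp11b1 and Cyp21a1 were at 0 to 0.04 FPKM in every library, Cyp11b2 was at 0 to 0.07 FPKM in IRI and 0 in sham, and Hsd3b1 was at 0.03 to 1.35 FPKM in IRI and 0 to 0.12 FPKM in sham. Nr5a1 was at 0 in all libraries. The 10 neutrophil markers had sums of 20.8 to 108 FPKM in IRI and 0.94 to 3.39 FPKM in sham. The 4 of them that passed the filter did so mainly through the IRI libraries, where they are high, and with no filter all 10 were called higher. Of 10 macrophage markers, 7 were tested: Cd68 rose, Csf1r fell and 5 were not called, with sums of 52.22 to 124.4 FPKM in IRI and 46.59 to 78.97 FPKM in sham. The part of these cells in the results was not tested.

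The rest of the sterol pathway did not move as a block. Of 13 other genes of sterol synthesis and uptake, 11 were tested, and 4 rose, 4 fell and 3 were not called (median log2 fold change -0.23). Acat1, a mitochondrial thiolase of ketone metabolism, fell by 2.29 ± 0.20, to 58.2 ± 15.9 FPKM in IRI, against 242.6 ± 15.1 FPKM in sham. Npc1, which lets cholesterol out of lysosomes, rose by 0.77 ± 0.13, to 3.92 ± 0.67 FPKM in IRI, against 1.94 ± 0.20 FPKM in sham.

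Among genes of SREBP processing and sterol sensing, 9 were tested, of which 2 rose, 4 fell and 3 were not called (median log2 fold change -0.15). Mbtps2, the site-2 protease of SREBP, rose by 0.32 ± 0.11 and Ufd1 by 0.66 ± 0.09, while Erlin1, a protein of the endoplasmic reticulum membrane, fell by 1.37 ± 0.19, Tmem97 by 0.95 ± 0.20 and Erlin2 by 0.48 ± 0.11. Without IRI replicate 3 Mbtps2 was not called (adjusted p = 0.0525), and with library totals 2 of the 4 falls, those of Erlin2 and Mbtps1, were not called. Of 11 LXR targets and efflux genes, 8 were tested: Scarb1, the HDL receptor, rose by 1.48 ± 0.11, 5 fell and 2 were not called (median log2 fold change -0.45). Nr1h3, which encodes LXR-alpha, fell by 1.93 ± 0.19, to 6.17 ± 1.66 FPKM in IRI, against 19.9 ± 2.64 FPKM in sham. With library totals 3 genes of this list were called lower and 2 higher. Smpdl3a fell by 1.75 ± 0.22 and Mylip, a ubiquitin ligase, by 0.66 ± 0.12.

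Of 24 other genes of fatty acid synthesis, 19 were tested, of which 14 fell, 2 rose and 3 were not called (median log2 fold change -1.11). Acss2, which makes acetyl-CoA from acetate, fell by 3.15 ± 0.33, to 3.90 ± 2.07 FPKM in IRI, against 29.8 ± 2.00 FPKM in sham. Mlxipl, which encodes the carbohydrate-responsive factor ChREBP, fell by 2.51 ± 0.26, and Me1, the malic enzyme that yields NADPH, by 2.42 ± 0.21. Hacd1 and Elovl7 rose, by 0.65 ± 0.18 and 0.45 ± 0.12.

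Genes that assemble or store glycerolipids were divided: of 16, 15 were tested, 8 rose, 6 fell and 1 was not called (median log2 fold change 0.37). Plin2, the coat protein of lipid droplets, rose by 3.75 ± 0.14, to 373.2 ± 54.7 FPKM in IRI, against 23.4 ± 2.09 FPKM in sham. Gpat3 rose by 1.22 ± 0.16 and Lpin3, of the same family as Lpin1, by 0.93 ± 0.11. Mogat1 fell by 2.59 ± 0.32, Mogat2 by 1.43 ± 0.24 and Dgat2, which adds the last acyl chain of a triglyceride, by 1.25 ± 0.17. Of 14 acyl-CoA synthetases, 12 were tested, of which 3 rose, 7 fell and 2 were not called (median log2 fold change -0.69). Acsl4, which activates arachidonate, rose by 2.07 ± 0.13, Acsl5 by 0.89 ± 0.13 and Slc27a4 by 0.57 ± 0.09. Acsm3 fell by 4.13 ± 0.41, Acsm5 fell by 3.20 ± 0.34 and Slc27a2 fell by 2.83 ± 0.37.

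**Figure D5:**
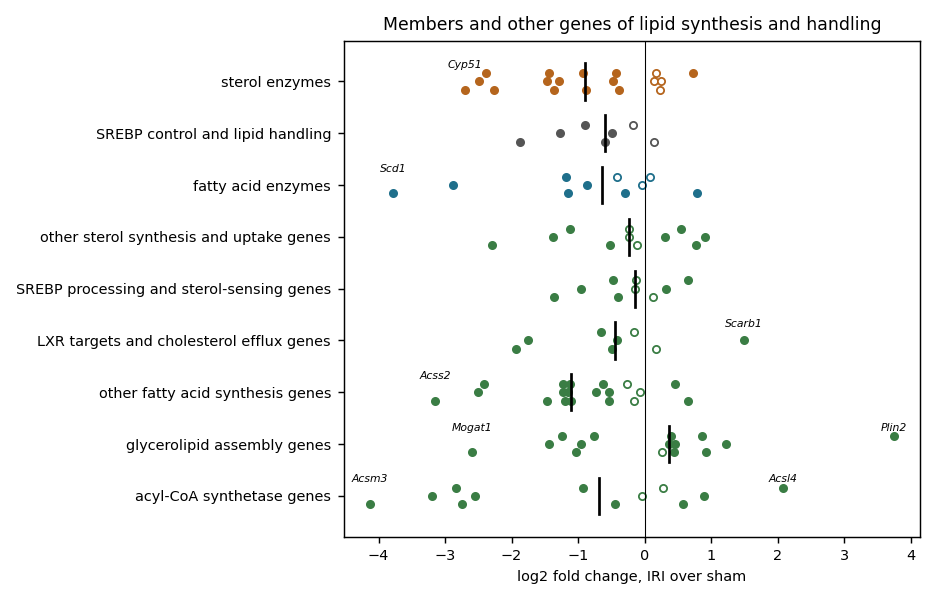
Log2 fold change of IRI over sham (horizontal axis) for the 3 sets of genes described and for 6 further lists of lipid genes (rows), each point 1 tested gene, filled where it passed the test, with the median of each row as a vertical line. Medians of the sterol enzymes (-0.91) and of other fatty acid synthesis genes (-1.11) lie farthest left, and glycerolipid assembly is the only row with a median above 0.

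Levels, which FPKM gives per exonic length, put the genes in a different order in each group. In sham kidneys the highest means of the 35 genes were those of Hmgcs1, at 159.3 ± 10.1 FPKM, and Cyp51, at 60.9 ± 11.7 FPKM. Next came Fads2 at 60.8 ± 7.08 FPKM and Scd1 at 39.9 ± 12.4 FPKM. Ranges overlapped for Cyp51 and Fads2 and for Cyp51 and Scd1. The range of Scd1, 18.91 to 50.17 FPKM, also held those of Mvd, Acat2 and Ebp, with means of 36.1 to 37.2 FPKM. In IRI kidneys the highest means were those of Elovl1, at 41.5 ± 3.30 FPKM, and Hmgcs1, at 36.0 ± 8.93 FPKM. Next came Acly at 33.2 ± 4.18 FPKM and Scd2 at 21.5 ± 6.57 FPKM. The ranges of Elovl1, Hmgcs1 and Acly overlapped, as did those of Hmgcs1, Acly and Scd2. That of Scd2, 11.68 to 29.07 FPKM, also held those of Elovl5 and Srebf2, with means of 17.9 and 17.7 FPKM. Elovl1, Acly and Scd2 were not called between the groups.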

How the data were processed

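The table that the authors deposited lists whole-number counts and FPKM of 55359 genes in 10 libraries (5 IRI, 5 sham), beside exonic length and coordinates. Per the labels, libraries were made from poly(A) RNA, fragmented, randomly primed and sequenced as paired reads. The submitters' processing notes name HISAT2 2.0.1, cutadapt 1.9.1, build GRCm39 and HTSeq 0.6.1, with no settings and no word on strand. Each deposited FPKM value equalled count over length and library total within 0.005 units or 0.1%. Symbols came from a table of gene names (52083 genes matched).

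The 13324 genes that reached 1 FPKM in 5 libraries entered edgeR 4.0.16 (R 4.3.3), whose quasi-likelihood test was run on the counts with TMM factors and Benjamini-Hochberg adjustment over all of them, with calls at adjusted p under 0.05. The SE is the fold change over the square root of F. Pairs were tested as log2 of counts plus 0.5. The SE and p-values reflect the spread between libraries, and PCR reads are not independent molecules.

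The 35 genes, lists and tests were chosen with earlier results of these data known. Per-library values are given for the 3 called genes of largest fold change per set and direction, for genes called against their set and for tested pairs (also, outside this rule, for Acly). Up to 3 called genes per direction are named from each other lipid list, and some genes that this rule takes are not reported here. Alternatives used DESeq2 1.42.0, limma 3.58.1 on log2(FPKM + 1) or log2(FPKM + 0.1), other scalings, filters and thresholds, a replicate block and leaving out each library. Promoter letters are from RefSeq, build GRCm38.p6, and their coordinates are never mixed with those of GRCm39. Of 37 windows, 35 had 20 bases after the start within a transcript of the gene.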

Additional observations from a re-analysis of the deposited data

Results flagged for a closer look

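In each group of 5 libraries, the highest and lowest FPKM of each of the 35 genes were compared with the rest of the group, and 4 of 70 groups held a library that stood apart by Dixon's ratio. Chance flags about 1 in 20 groups. Lss was at 2.74 FPKM in IRI replicate 1 and at 1.92 to 2.02 FPKM in the other IRI libraries. Fasn was at 5.6 FPKM in IRI replicate 1 and at 3.59 to 4.10 FPKM in the others. Insig1 was at 24.09 FPKM in sham replicate 1 and at 17.24 to 19.09 FPKM in the other sham libraries. Elovl6 was at 5.59 FPKM in sham replicate 3 and at 2.39 to 2.84 FPKM in the others. Without these libraries, Lss, Fasn, Insig1 and Elovl6 kept their calls.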

How the results depend on the processing

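Counts of lower calls held within 1.5 times for the 35 genes (20 to 24) and for the sterol enzymes (10 to 13) under every alternative run. Counts of higher calls, being small, did not. Against 2 of the 35 genes, 8 were called higher with library totals, 8 by limma with either pseudocount, 4 with upper-quartile factors and 1 at adjusted p under 0.01. For sterol enzymes these counts were 5, 5, 3 and 1, against 1, and for fatty acid enzymes 2, 2, 1 and 0, against 1. Leaving out a library gave 2 to 4 of the 35 and 1 to 3 of the sterol enzymes. Limma was run on FPKM, which is also scaled by library totals, and that scaling lifts the median of all genes by 0.25 on the log2 scale. With library totals, 5 markers of other nephron segments were called higher, against 3, and 2 macrophage markers, against 1. The sterol minus fatty acid difference in medians was -0.37 to -0.17 when a library was left out and 0.033 over means. No direction of a called gene was reversed.

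IRI and sham libraries of the same replicate number did not deviate alike from their group means (correlations of -0.25 to 0.06). Whether they shared a batch was not tested. With a replicate block, edgeR called 8318 genes, against 8919, with the same 24 lower and 2 higher among the 35. The pairs under a replicate block, as a sign-flip test that cannot give p under 0.0625, kept differences of -1.11, -0.74, -3.48, 1.86, -1.11 and -0.75 (Elovl1/Elovl6 last) with adjusted p = 0.075 to 0.125 in that exact test. For Elovl1/Elovl6 the difference was -0.74 with a pseudocount of 5 and -0.99 to -0.65 when a library was left out. Depth was lowest for Idi1, Mvk and Dhcr7 among the genes that fell, with 418, 646 and 899 counts summed over the IRI libraries.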
